A study of Mus musculus with 24 samples.

Results

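Genes of epithelial junctions and cell polarity were followed in peak lists of chromatin immunoprecipitation followed by sequencing (ChIP-seq) from mouse embryonic stem cells. They were Cldn4, Cldn6, Pard6b, Amotl2, Cdh1, Epcam, Krt8 and Krt18, with Zeb1 as a repressor of epithelial genes. These 9 genes of a table of 21887 protein-coding genes were chosen by the measured peaks of the asynchronous and mitotic lists compared here, so that all values are given as a description with no test. A peak was assigned to a gene when its midpoint lay inside or within 20 kb of the gene span, which gave 323 of the 246925 peaks in 16 lists.

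All groups were V6.5 cells of the strain C57BL/6-129, for which the labels give E3.5 as the age. They were grown on irradiated feeder cells with 15% serum and LIF at 1000 U/ml, and then on gelatin in a medium with the inhibitors PD98059 (of MEK1) and Chir99021 (of Gsk3) for at least 2 passages. The mitotic groups were shaken off after nocodazole, which depolymerises microtubules, given for 7 h and, per the labels, at 100 ug/ml. All cells were fixed with 1% formaldehyde for 10 min. Libraries numbered 3 asynchronous and 3 mitotic for Klf4 and 1 asynchronous and 2 mitotic for each of Oct4 and Sox2, and acetylated lysine 27 of histone H3 (H3K27ac) had 2 of each. No label says that libraries of a group came from separate cultures, so their spread may be technical.

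In polarised epithelia, claudins seal the space between neighbouring cells at tight junctions, E-cadherin (Cdh1) joins cells at adherens junctions, and the Par complex, of which Pard6b is a subunit, sets the apical domain. Embryonic stem cells in naive culture form compact, E-cadherin-rich colonies and share these genes with epithelia. Klf4 is a zinc finger factor of both the pluripotency network and of epithelia, and Zeb1 is a zinc finger repressor that binds E-boxes at epithelial genes such as Cdh1. H3K27ac marks active promoters and enhancers.

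The lists differed in length with antibody and state. The 3 asynchronous Klf4 lists held 10575, 21307 and 16455 peaks and the 3 mitotic ones 5754, 3795 and 8438, so every mitotic list was shorter than every asynchronous list. The H3K27ac lists held from 46491 to 47475 asynchronous and from 30771 to 36526 mitotic peaks, and those of Oct4 and Sox2 from 1246 to 5282. Read depth was not given and is unknown. The 2 H3K27ac states came from 2 projects of the labels, so state and project cannot be told apart for that mark. For Klf4, asynchronous libraries 1 and 2 and mitotic libraries 1 and 2 came from projects that held a single Klf4 state. State and project cannot be told apart for these libraries either. Asynchronous library 3 and mitotic library 3 of Klf4 shared a project. The labels' replicate numbers were used for the 2 mitotic Oct4 lists, whose peak names number them in the opposite order. Of 12 stem cell marker genes, 12 had an asynchronous Klf4 region and 10 an Oct4 region within 20 kb, against 3 and 1 of 12 markers of feeder fibroblasts and 6 and 2 of 12 markers of neural progenitors. The shares of all genes were 50.6% for Klf4 and 13.6% for Oct4, near those of the neural progenitor markers. For H3K27ac 12 stem cell, 6 feeder fibroblast and 9 neural progenitor markers had an asynchronous region, against 69.6% of all genes.

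For each antibody, peaks of all libraries that shared at least 1 bp were merged into regions. A region was asynchronous when at least 2 of 3 (Klf4), both (H3K27ac) or the single (Oct4, Sox2) asynchronous library had a peak there. The call was kept where 2 or more mitotic libraries also had a peak, lost where none had, and intermediate where 1 had. A mitotic-only region had a peak in at least 2 mitotic and in no asynchronous library, and remaining regions were left uncalled. Fold is the enrichment over local background that the authors' peak caller gave, and the strength of a region is the mean percentile of its fold within the asynchronous lists. A lost call means that no peak was listed, and fewer cells with the factor bound and less binding per cell cannot be told apart.

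The 5 members with a Klf4 peak over the 250 bases before the transcription start are shown by that sequence, since at 4 of them (Cldn4, Amotl2, Krt8 and Krt18) the region there was lost in mitosis and at Pard6b it was left uncalled. The sequences are from RefSeq, build GRCm38.p6 (mm10), 5′ to 3′ on the strand of the gene, and lie at chr5:134946935-134947184 (minus strand, Cldn4), chr2:168080754-168081003 (plus, Pard6b), chr9:102717554-102717803 (plus, Amotl2), chr15:102004343-102004592 (minus, Krt8) and chr15:102027966-102028215 (plus, Krt18). Capitals mark matches on either strand to GGGTGTGG or GGGCGTGG (forms of the longer Klf motif), to CACCC (its short core, which GGGTGTGG contains as GGGTG) or to CACCTG (an E-box of the kind Zeb1 binds, CAGGTG on the other strand).
Cldn4: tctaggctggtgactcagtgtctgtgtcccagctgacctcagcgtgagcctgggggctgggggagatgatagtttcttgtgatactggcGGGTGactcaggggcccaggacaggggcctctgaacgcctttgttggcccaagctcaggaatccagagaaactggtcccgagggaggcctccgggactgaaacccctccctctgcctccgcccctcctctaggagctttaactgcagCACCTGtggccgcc
Pard6b: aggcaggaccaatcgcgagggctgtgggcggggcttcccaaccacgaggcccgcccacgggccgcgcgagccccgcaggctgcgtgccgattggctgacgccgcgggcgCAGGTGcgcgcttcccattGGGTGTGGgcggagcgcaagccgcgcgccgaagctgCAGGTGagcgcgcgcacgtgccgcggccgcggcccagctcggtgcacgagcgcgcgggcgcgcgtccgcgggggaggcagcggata
Amotl2: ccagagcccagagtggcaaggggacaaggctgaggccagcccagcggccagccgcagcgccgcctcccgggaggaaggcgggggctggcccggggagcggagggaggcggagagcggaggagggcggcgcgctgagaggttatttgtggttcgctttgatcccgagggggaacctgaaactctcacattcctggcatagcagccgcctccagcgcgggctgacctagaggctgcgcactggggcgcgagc
Krt8: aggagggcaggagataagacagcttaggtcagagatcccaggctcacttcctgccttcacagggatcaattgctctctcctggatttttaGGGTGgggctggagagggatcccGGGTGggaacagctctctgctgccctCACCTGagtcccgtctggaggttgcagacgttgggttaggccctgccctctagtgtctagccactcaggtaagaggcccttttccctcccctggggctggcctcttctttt
Krt18: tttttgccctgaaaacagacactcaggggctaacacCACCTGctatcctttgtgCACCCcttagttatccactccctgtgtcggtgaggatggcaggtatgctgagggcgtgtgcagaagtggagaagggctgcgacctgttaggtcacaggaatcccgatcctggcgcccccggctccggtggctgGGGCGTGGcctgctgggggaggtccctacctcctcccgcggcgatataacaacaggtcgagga

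The promoter of Pard6b held GGGTGTGG 122 bases before the start, a motif found in 3.20% of 32851 promoter windows of the same length. The promoter of Krt18 held GGGCGTGG 63 bases before the start, against 4.79% of all windows. CACCC, found in 52.0% of all windows, was present at Cldn4, Pard6b, Krt8 and Krt18. CACCTG, found in 17.2%, was present once each at Cldn4, Krt8 and Krt18 and at 2 positions at Pard6b. Amotl2, whose start had the strongest Klf4 peak of the members in asynchronous library 1 though not in libraries 2 and 3, held none of these letters in this window. The sequences were 62.0% (Cldn4), 77.6% (Pard6b), 70.4% (Amotl2), 58.0% (Krt8) and 60.4% (Krt18) G and C, against a median of 52.4% over all windows. Pard6b held 43 CG pairs and Amotl2 21, while Krt8 held 3. The printed promoters thus ranged from CG-rich to CG-poor, and a match says only that these letters are present.

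Klf4 was listed near most of these genes in asynchronous cells. With the full lists of all libraries its regions there were kept or lost about as often as elsewhere, which did not hold with lists of equal length. The members held 19, 31 and 23 Klf4 peaks in asynchronous libraries 1 to 3 and 10, 6 and 11 in mitotic libraries 1 to 3. The groups did not overlap in number (24.3 ± 6.11 against 9 ± 2.65 peaks, mean and SD, n = 3 each), and the whole lists were shorter in mitosis too. As a share of its list this was 0.155% ± 0.0218 in asynchronous and 0.154% ± 0.0223 in mitotic libraries (SD, n = 3 each), and these groups overlapped.

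**Figure D1:**
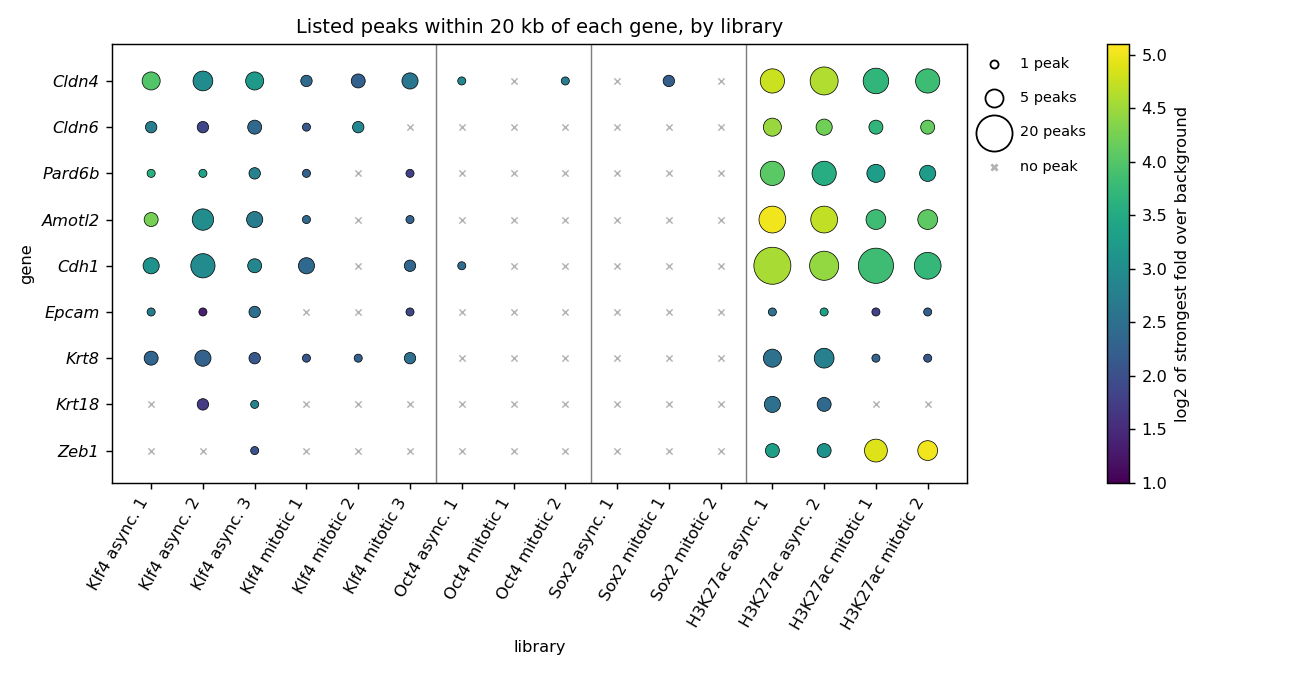
Peaks within 20 kb of each gene (rows) in each of the 16 libraries (columns). Circle area is the number of peaks, colour the log2 of the strongest fold over background, and a cross marks no listed peak. At Cldn4, Pard6b, Amotl2 and Cdh1 the strongest Klf4 fold is lower in every mitotic column with a peak than in every asynchronous one. At Cldn6 and Krt8 the highest Klf4 fold is mitotic (7.41 in library 2 and 5.72 in library 3), and at Epcam the mitotic fold lies between the asynchronous ones. Krt18 and Zeb1 have no mitotic Klf4 peak. Folds of separate lists were not scaled to each other. The strongest H3K27ac circles of Zeb1 are the mitotic ones.

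Of 41 Klf4 regions near the members, 23 were asynchronous. Of these, 10 were lost (43.5%, against 44.0% of all 13982 asynchronous Klf4 regions), 8 were intermediate (34.8%, against 29.1%) and 5 were kept (21.7%, against 26.9%). No Klf4 region was mitotic-only. These shares were near the background. At the level of genes, 8 of the 9 members had an asynchronous Klf4 region, against 50.6% of all genes. A kept region stood near 4 of these 8 (Cldn4, Cldn6, Amotl2 and Krt8), against 43.2% of all genes with an asynchronous Klf4 region. All regions were lost at 2 of the 8 (Pard6b and Krt18), against 28.3%. In the 1 project of the labels that held both Klf4 states (asynchronous 3 and mitotic 3), 17 of 23 regions were lost and 6 kept, where 63.2% and 36.8% of all 16402 regions were.

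These counts moved with single libraries and with list length. Without asynchronous library 2, 12 regions were asynchronous and 5 lost (25.9% of all regions), and without asynchronous library 3, 16 and 5 (38.5%). The lost share of the members was above that of all regions in the first case and below it in the second. Without mitotic libraries 1, 2 or 3, the kept regions numbered 2, 3 and 2, where 13.7%, 21.2% and 13.0% of all regions were kept. With lists cut to equal length, 8 regions were asynchronous, of which 4 were lost and 1 kept, where 25.7% and 47.7% of all 3235 regions were. On these 8 regions the members were thus more often lost and less often kept than all regions.

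The lost regions of the members ranged widely in strength, from 12.9 (Cdh1), 22.3 (Krt8) and 38.3 (Cldn6) to 94.2 (Cldn4). The median of the lost member regions was 58.6, against 45.5 for all lost Klf4 regions. Kept member regions had a median of 67.4, against 73.3 for all kept regions. The members were chosen by these same peaks, so the choice can shape these medians, and no test was made. The lost regions at Cldn4, Pard6b and Amotl2 reached strengths of 94.2, 89.3 and 82.1. These 3 regions had a peak in all 3 asynchronous libraries and were still called lost with lists of equal length and with a −log10 q of at least 5. Both settings only remove peaks, so a lost region cannot gain a mitotic peak under them, while a kept region can lose its own. The Pard6b region lies outside a 5 kb window. The strongest kept regions of Cldn4, Cldn6, Amotl2 and Krt8 were no longer kept with a −log10 q of at least 5. With lists of equal length only that of Amotl2 among them stayed kept.

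**Figure D2:**
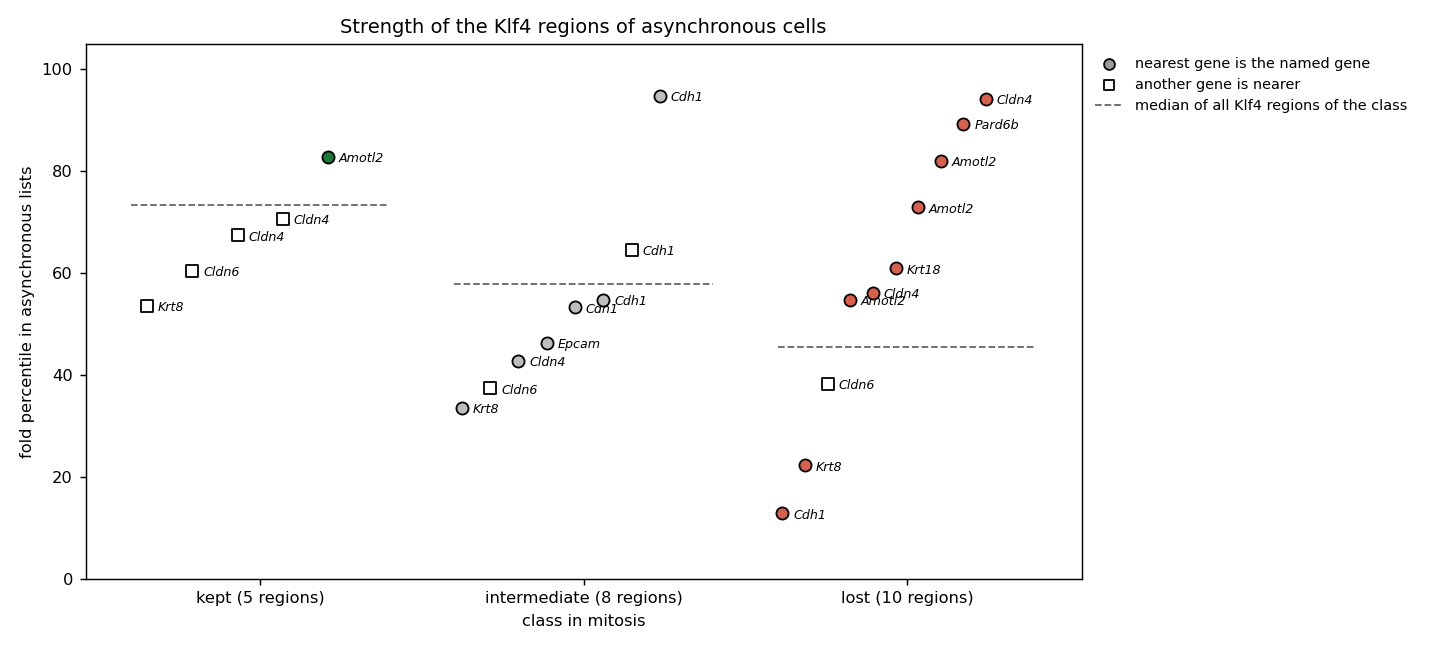
Strength (mean percentile of fold within the asynchronous lists, vertical axis) of the 23 asynchronous Klf4 regions by class, each labelled with its gene. Circles are regions whose nearest gene is the named gene, squares those nearer to another gene, and dashed lines the medians of all Klf4 regions of the class (73.3, 57.8 and 45.5). Among the kept regions 4 of 5 are squares, and among the lost regions 1 of 10 is.

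After the positions had been seen, each region was also assigned to its nearest gene. Of the 23 asynchronous Klf4 regions, 16 had a member as nearest gene. Of these 16, 9 were lost (56.2%), 6 were intermediate (37.5%) and 1 was kept (6.25%). The other 7 lay nearer to or inside another gene, and 4 of these were kept (57.1%), 2 intermediate (28.6%) and 1 lost (14.3%). Over all asynchronous Klf4 regions, 44.0% were lost, 29.1% intermediate and 26.9% kept. The kept regions counted for Cldn4 were nearest to Mettl27, that of Cldn6 lay in Thoc6 and Hcfc1r1, and that of Krt8 lay in Krt78. The kept count of the members therefore came mostly from regions of neighbouring genes in their windows. The difference between both sets was noticed in these data and was not tested.

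**Figure D3:**
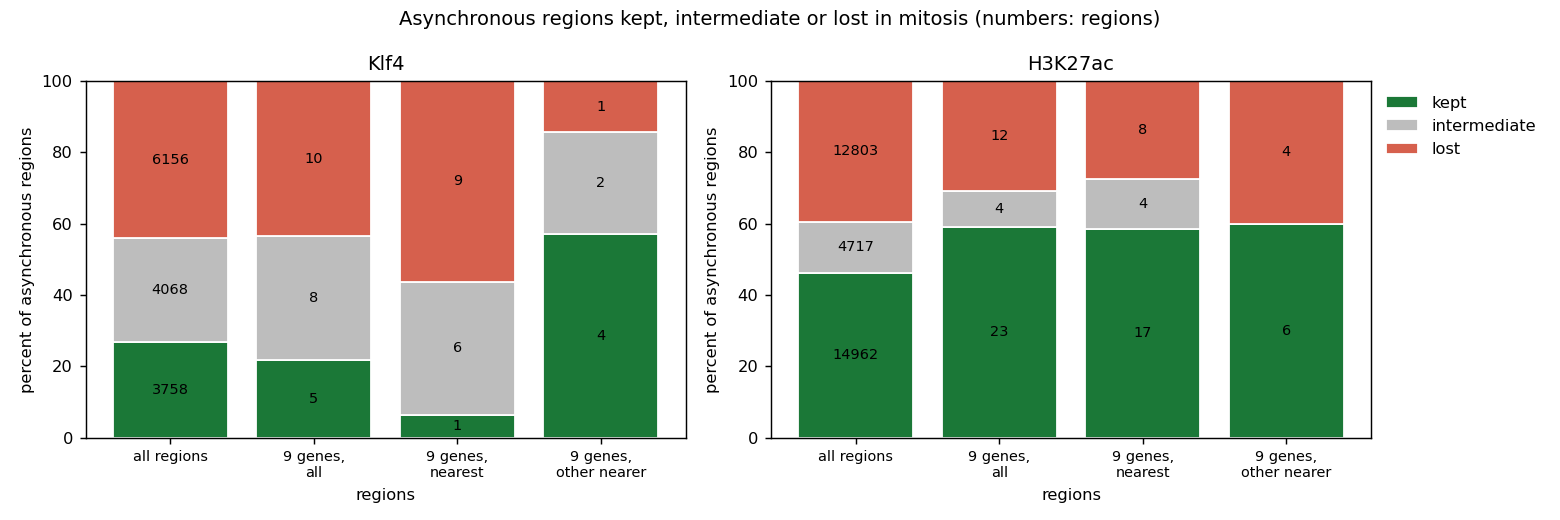
Percent of asynchronous Klf4 (left) and H3K27ac (right) regions that were kept, intermediate or lost, for all regions, for the regions of the 9 genes, and for these split by whether a member or another gene is nearest. Numbers in the bars are regions. The 9-gene Klf4 bar is close to that of all regions (5, 8 and 10 regions), and the bar of regions nearest to a member holds 1 kept of 16.

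Cldn4 encodes a claudin of tight junctions and lies at chr5:134945123-134946934 on the minus strand. Its strongest Klf4 region lay inside the gene at chr5:134945185-134945685, with folds of 15.8, 7.76 and 9.30 in asynchronous libraries 1 to 3 and no peak in any mitotic library. The first of these was the 62nd strongest of 10575 peaks in its list. A weaker region over the start, chr5:134946826-134947263, had folds of 3.16 and 6.69 in asynchronous libraries 2 and 3 and was also lost. This region spans the whole printed Cldn4 promoter.

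The Cldn4 regions with mitotic Klf4 peaks lay on the side of Mettl27. At chr5:134939327-134940406, 4.72 kb past the gene, folds were 5.34, 5.70 and 5.43 in the asynchronous and 5.29, 4.72 and 3.69 in the mitotic libraries, so all 6 libraries had a peak. At chr5:134926651-134927121, 18 kb past the gene, folds were 6.47, 4.93 and 5.39 in asynchronous libraries and 4.33 and 6.12 in mitotic libraries 1 and 3. Both regions were weaker in asynchronous cells than the lost region inside the gene. An intermediate region 0.643 kb past the gene had folds of 4.92 and 3.03 in asynchronous libraries 1 and 2 and 3.55 in mitotic library 3.

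H3K27ac at Cldn4 was listed in both states. A domain of 8891 bp over the gene, chr5:134939933-134948823, had folds of 27.2 and 24.5 in the asynchronous and 12.8 and 14.1 in the mitotic libraries. All 4 libraries thus had a strong peak over both lost Klf4 regions, with lower folds in mitosis. Folds of separate lists depend on each library's background and were not scaled to each other. Of the 7 asynchronous H3K27ac regions of Cldn4, 4 were kept, 1 was intermediate and 2 were lost.

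Cldn4 was also the only member with Oct4 peaks in both states and with any Sox2 peak within 20 kb. The nearest gene of these regions was its neighbour Mettl27, at 195 bp for Oct4 and 240 and 5152 bp for Sox2. An Oct4 region 1.94 kb past the gene, chr5:134942832-134943183, had a fold of 7.55 in the asynchronous library and 6.60 in mitotic library 2, and no peak in mitotic library 1. Sox2 had no asynchronous peak near the gene. Its mitotic library 1 had 2 peaks, with folds of 4.17 at the Oct4 region and 4.64 at the kept Klf4 region 18 kb past the gene, and its mitotic library 2 had none. Both Sox2 regions rested on 1 library.

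Pard6b encodes a Par6 protein, the scaffold that links atypical protein kinase C to Par3 and Cdc42, and lies at chr2:168081004-168101203 on the plus strand. Its strongest Klf4 region was 13.7 kb past the gene at chr2:168114930-168115406. Folds there were 12.1, 10.4 and 6.94 in asynchronous libraries 1 to 3, and no mitotic library had a peak. No other gene of the table lay in its window. At the start of the gene, chr2:168080585-168081161, Klf4 had a weak peak in asynchronous library 3 (4.63) and in mitotic libraries 1 and 3 (4.81 and 3.48). The start thus had more mitotic than asynchronous libraries with a peak, the reverse of the distal region, and with 1 asynchronous library it was left uncalled.

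H3K27ac at Pard6b was kept at both places. Over the distal Klf4 region, chr2:168114017-168116679 had folds of 16.6 and 11.3 in the asynchronous and 9.59 and 9.56 in the mitotic libraries. At the start, chr2:168080858-168081899 had 9.98 and 11.1 in the asynchronous and 6.11 and 6.34 in the mitotic libraries. Of its 5 asynchronous H3K27ac regions, 4 were kept and 1 was lost. The loss of the listed Klf4 peak at the distal region therefore stood beside H3K27ac peaks in both mitotic libraries.

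Amotl2 encodes an angiomotin-like protein of tight junctions that binds Yap, and lies at chr9:102717091-102733418 on the plus strand. The Klf4 region over its start, chr9:102717517-102717985, had folds of 19.0, 8.10 and 5.40 in asynchronous libraries 1 to 3 and no mitotic peak. The peak in library 1 was the 33rd strongest of 10575. A region 8.56 kb inside the gene from the start, chr9:102726012-102726711, had 7.37, 5.22 and 5.09 in the 3 asynchronous libraries and was lost as well. Another lost region, chr9:102719879-102720194, had peaks in asynchronous libraries 2 and 3 (3.12 and 6.45). All 3 lost regions overlapped the gene.

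Upstream of Amotl2, 2.56 kb before the start, lay the 1 kept Klf4 region whose nearest gene was a member. It spanned chr9:102715053-102715445 and had folds of 5.90 and 6.31 in asynchronous libraries 1 and 2 and 5.29 and 4.93 in mitotic libraries 1 and 3. The kept call held in 8 of 14 alternatives. The region was intermediate with a −log10 q of at least 5 and without mitotic library 1 or 3. It was left uncalled without asynchronous library 1 or 2, and was mitotic-only within the 1 project with both Klf4 states. Mitotic library 2, the shortest Klf4 list, had no peak near Amotl2. H3K27ac spanned both the kept and the lost start region in a domain of 5920 bp, with folds of 32.2 and 26.1 in the asynchronous and 14.2 and 17.0 in the mitotic libraries. At the kept Klf4 region itself the mitotic H3K27ac folds were 5.81 and 6.19. Of 7 asynchronous H3K27ac regions, 3 were kept, 2 intermediate and 2 lost.

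**Figure D4:**
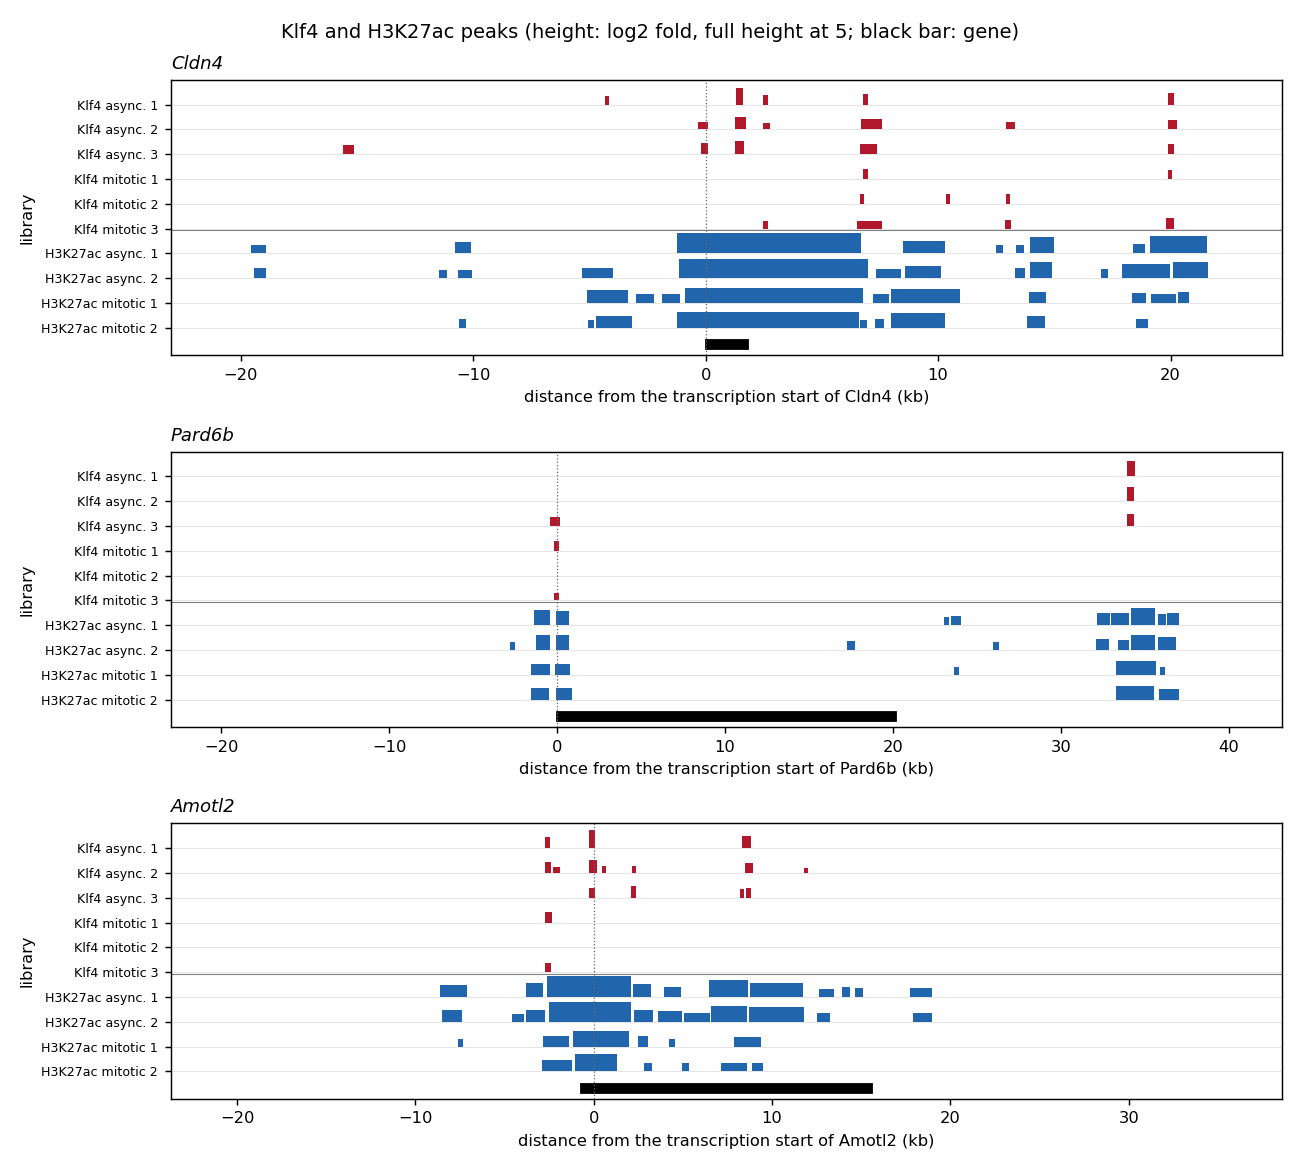
Listed Klf4 (red) and H3K27ac (blue) peaks by library at Cldn4, Pard6b and Amotl2, against distance from the transcription start in kb. Bar height is the log2 of fold, with full height at 5, and the black bar is the gene. Asynchronous Klf4 peaks inside Cldn4, past the end of Pard6b and at the start of Amotl2 have no counterpart in the 3 mitotic rows, while H3K27ac is listed there in all 4 rows.

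Cldn6, a claudin of embryonic epithelia and a close relative of the neighbouring Cldn9, lies at chr17:23679348-23682446 on the plus strand in a dense stretch with 5 other genes in its window. Its 3 Klf4 regions all overlapped other genes. The kept region, chr17:23673563-23674062, had folds of 6.64, 3.66 and 4.79 in asynchronous libraries and 4.33 and 7.41 in mitotic libraries 1 and 2. The peak of 7.41 was the 75th strongest of 3795 in mitotic library 2. The intermediate region (3.42 and 4.26, mitotic 4.52) and the lost region (4.52 and 5.18) each had peaks in 2 asynchronous libraries. Nothing of Klf4 was listed inside Cldn6 itself.

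H3K27ac around Cldn6 held both directions. A region inside the gene, chr17:23680460-23681730, was mitotic-only, with folds of 4.94 and 3.75. A region in Thoc6, chr17:23668929-23671304, had a fold of 4.37 in asynchronous library 1, none in library 2, and 12.8 and 17.3 in the mitotic libraries. In contrast, the kept region at the kept Klf4 site had 22.0 and 18.5 in the asynchronous and 6.11 and 4.04 in the mitotic libraries, and 3 further asynchronous regions were lost.

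Cdh1 encodes E-cadherin and lies at chr8:106603350-106670247. Klf4 had 4, 9 and 3 peaks there in asynchronous libraries 1 to 3 and 4, 0 and 2 in mitotic libraries 1 to 3. It had the most asynchronous regions together with Cldn4, 5 each, and 4 of the 5 were intermediate. The strongest, chr8:106609046-106609465, was 5.91 kb inside the gene from its lower-coordinate end, with folds of 8.54 and 7.70 in asynchronous libraries 1 and 2 and 5.03 in mitotic library 3. A region at chr8:106619530-106620034 had 6.23, 4.72 and 3.86 in the asynchronous libraries and 4.05 in mitotic library 1. A region 0.747 kb inside the gene from its lower-coordinate end, chr8:106603908-106604286, had 4.80 and 3.59 in asynchronous libraries 1 and 2 and 5.21 in mitotic library 1. The mitotic peaks of Cdh1 thus came from 1 library at a time, mostly mitotic library 1, and the call would be kept if any mitotic library sufficed.

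The other Cdh1 regions were an intermediate one inside Tango6 (3.38 and 7.35, mitotic 3.79) and a weak lost one (2.74 and 3.89). Oct4 had 1 region at Cdh1, chr8:106618261-106618604, with a fold of 5.40 in the asynchronous library and no mitotic peak. Of the 2 asynchronous Oct4 regions of all members, 1 was therefore lost (Cdh1, background 36.2%) and 1 intermediate (Cldn4, background 39.3%). With 2 regions these shares say little. Oct4 regions stood near 2 of the 9 genes, against 13.6% of all genes, and asynchronous Sox2 regions near none, against 10.9%.

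H3K27ac over Cdh1 was wide in both states. A region of 18856 bp, chr8:106605233-106624088, had folds of 18.4 and 14.8 in the asynchronous and 11.9 and 11.8 in the mitotic libraries. Another of 11494 bp further into the gene had 11.5 and 13.0 in the asynchronous and 14.2 and 13.3 in the mitotic libraries, and there the mitotic folds were not below the asynchronous ones. The listed H3K27ac peaks of Cdh1 covered 37.2 and 38.2 kb in the asynchronous libraries and 33.9 and 31.4 kb in the mitotic ones. Of 8 asynchronous regions, 6 were kept, 1 was intermediate and 1 was lost.

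Epcam encodes an epithelial adhesion molecule that is abundant on embryonic stem cells, and lies at chr17:87635979-87651127 on the plus strand. Its 1 asynchronous Klf4 region, chr17:87636458-87636969, lay 0.734 kb inside the gene. Folds were 6.55, 2.57 and 5.60 in the asynchronous libraries and 3.63 in mitotic library 3, which made it intermediate. The single H3K27ac region of Epcam overlapped it and was kept, with folds of 5.70 and 10.0 in the asynchronous and 3.49 and 4.61 in the mitotic libraries.

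Krt8 and Krt18 encode the paired type II and type I keratins of simple epithelia and lie next to each other on chromosome 15, at chr15:101996711-102004342 (minus strand) and chr15:102028216-102032026 (plus strand). They share the regions between them. Klf4 at the start of Krt18, chr15:102027802-102028369, had folds of 3.27 and 7.16 in asynchronous libraries 2 and 3 and no mitotic peak. Klf4 just before the start of Krt8, chr15:102004372-102004577, had 4.43 and 2.68 in asynchronous libraries 1 and 2 and no mitotic peak. Both are the regions over the printed promoters, and both rested on 2 asynchronous libraries, so that without 1 of them (2 or 3 for Krt18, 1 or 2 for Krt8) they were no longer asynchronous. Inside Krt8, chr15:102002992-102003556 had 4.88, 3.38 and 3.09 in the asynchronous libraries and 3.90 in mitotic library 3. The kept region of Krt8 lay in Krt78, 18.9 kb past the gene, with 5.01, 4.87 and 4.39 in the asynchronous and 4.72 and 5.72 in the mitotic libraries 2 and 3.

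Krt18 was the 1 member with no mitotic H3K27ac peak within 20 kb, where the asynchronous libraries had 4 and 3 peaks. The region over its start, chr15:102028129-102028856, had a peak in asynchronous library 1 alone (4.04) and was left uncalled. Its 2 lost regions lay 10.1 and 9.49 kb before the gene and were shared with Krt8. Krt8 had 5 and 6 asynchronous peaks and 1 in each mitotic library. That kept region lay in Krt78 (4.75 and 6.79 asynchronous, 4.94 and 4.32 mitotic), while the region in Krt8 itself, with 4.70 and 4.16 in the asynchronous libraries, was lost. The asynchronous H3K27ac folds at both keratins were at most 6.79. In asynchronous library 1 the strongest was 5.70 at Krt8, Krt18 and Epcam alike. Over the whole mark, lost H3K27ac regions had a median strength of 40.0 and kept ones of 80.0. Whether strength bears on the calls at the keratins was not tested.

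Zeb1, the repressor, is the largest of these genes (184 kb, chr18:5591327-5775468). It was the 1 member without an asynchronous Klf4 region. Its only Klf4 peak had a fold of 4.09 in asynchronous library 3. H3K27ac at its lower-coordinate end was kept, with folds of 8.38 and 8.32 in the asynchronous and 4.07 and 6.05 in the mitotic libraries at chr18:5590783-5591757. A second kept region beside it had 9.89 and 8.47 in the asynchronous and 4.65 and 5.19 in the mitotic libraries. The third lay 160 kb from that end inside the gene, with 6.47 and 6.80 in the asynchronous and 5.23 and 5.48 in the mitotic libraries. These regions had peaks in all 4 libraries.

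Past the other end of Zeb1, H3K27ac was listed in mitotic cells alone. A region of 7649 bp, chr18:5784370-5792018, 8.90 kb past the gene, had folds of 29.4 and 32.1 in the 2 mitotic libraries and no peak in either asynchronous library. These were ranks 162 of 36526 and 109 of 30771 in their lists. They exceeded the mitotic H3K27ac folds of every other member, the next being 17.3 near Cldn6. A smaller mitotic-only region next to it had 3.78 and 3.75. The larger region was still called mitotic-only with lists of equal length and with a −log10 q of at least 5, and it lies outside a 5 kb window. Those 2 settings only remove peaks, so the region could not gain an asynchronous peak under them. No Klf4, Oct4 or Sox2 peak overlapped it. Its nearest gene in the table was Zeb1, and both its state and its project differ from the asynchronous lists, so that these cannot be told apart.

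**Figure D5:**
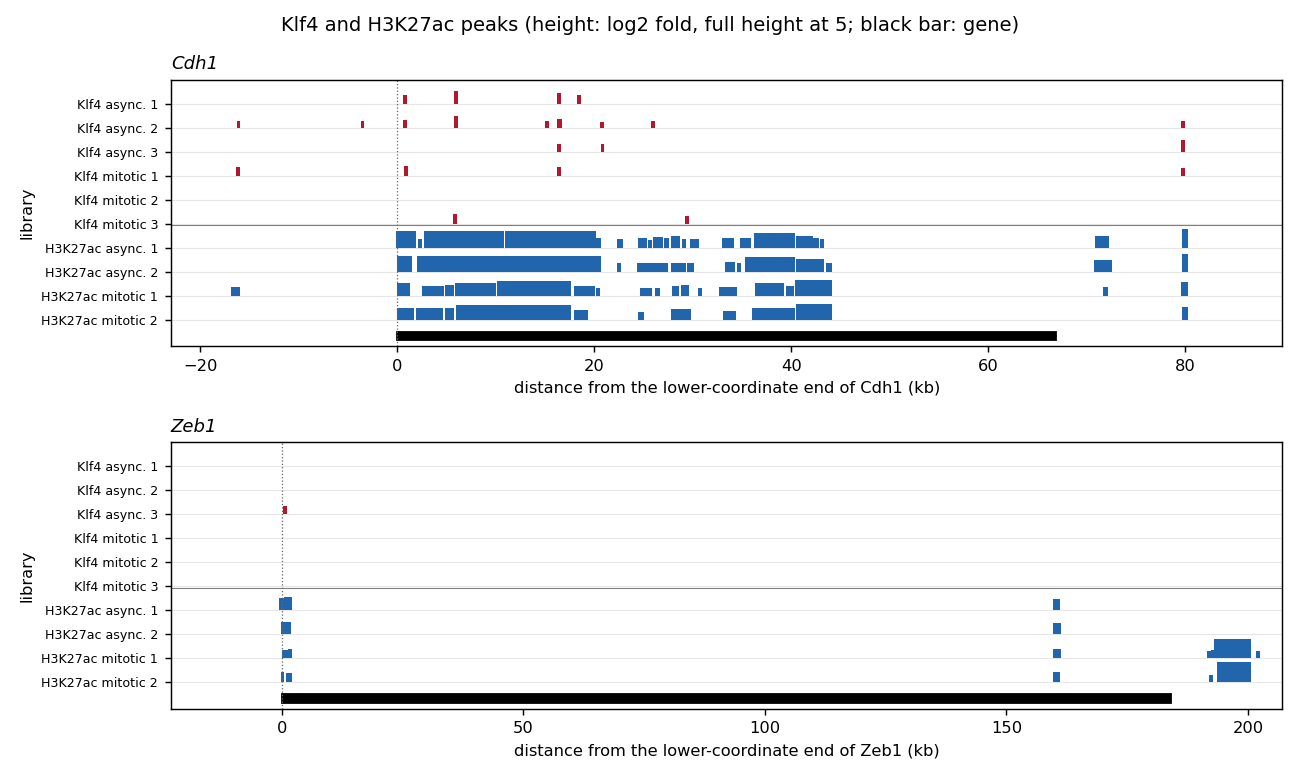
Listed Klf4 (red) and H3K27ac (blue) peaks by library at Cdh1 and Zeb1, against distance from the lower-coordinate end of the gene in kb. Bar height is the log2 of fold, with full height at 5, and the black bar is the gene. Wide H3K27ac peaks cover Cdh1 in all 4 rows, and the tall bars to the right of Zeb1 are in the 2 mitotic rows only.

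Over all 9 genes H3K27ac was more often kept than Klf4. The same held for all asynchronous regions, of which 46.1% were kept for H3K27ac and 26.9% for Klf4. A kept call needed both mitotic libraries for H3K27ac and 2 of 3 for Klf4, and the lists differed in length. Of 63 regions 39 were asynchronous, and of these 23 were kept (59.0%, against 46.1% of all 32482), 12 lost (30.8%, against 39.4%) and 4 intermediate. All 9 genes had an asynchronous region, against 69.6% of all genes. A kept region stood near 8 of the 9, against 80.4% of genes with an asynchronous region, and Krt18 had only lost ones, against 10.6%. Of 28 regions listed in both mitotic libraries, 3 were mitotic-only (10.7%), against 26.7% of all 21652 such regions. At the level of genes 2 of 9 (Cldn6 and Zeb1) had a mitotic-only region, against 20.9%. Without asynchronous library 1, 20 of 50 regions were lost, and without asynchronous library 2, 20 of 53, where 49.9% and 51.3% of all regions were. Without mitotic library 2 or asynchronous library 2 the mitotic-only regions numbered 7 and 5. The shares of genes with a kept, only lost or mitotic-only region were near the background, and the region-level shares lay on the kept side of it.

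Lost Klf4 regions of the members often lay on chromatin with H3K27ac peaks in mitosis. Of the 10 lost regions, 5 were overlapped by a peak in both mitotic H3K27ac libraries, against 32.5% of all lost Klf4 regions. Of the 8 intermediate ones 6 were, against 45.6%, and of the 5 kept ones 3 were, against 65.0%. The 5 lost regions were the 2 at Cldn4, the distal one of Pard6b, and 2 of the 3 at Amotl2. In the asynchronous H3K27ac libraries 7 of the 10 lost, 7 of the 8 intermediate and 4 of the 5 kept regions were overlapped in both, against 55.4%, 70.9% and 84.8% of all such Klf4 regions. H3K27ac peaks are wide, and several Klf4 regions of Cldn4 share 1 of them, so these regions are not independent.

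Another 93 genes were of junctions, polarity, Hippo signalling, keratins, epithelial regulators and mesenchymal repressors. Of the 93, 77 had an asynchronous Klf4 region (82.8%, against 50.6% of all genes). Of the 77, 32 had a kept region (41.6%, against 43.2% of all such genes) and 17 only lost ones (22.1%, against 28.3%). For H3K27ac, 80 of the 93 had an asynchronous region (86%, against 69.6% of all genes). Of the 80, 63 had a kept one (78.8%, against 80.4%) and 6 only lost ones (7.50%, against 10.6%). A mitotic-only H3K27ac region stood near 27 of the 93 (29.0%, against 20.9% of all genes). Oct4 had asynchronous regions near 24 of the 93 (25.8%, against 13.6% of all genes) and Sox2 near 18 (19.4%, against 10.9%). By list, Klf4 had asynchronous regions near 11 of 15 other tight junction genes (73.3%) and 15 of 16 polarity genes (93.8%). It had them near 16 of 17 genes of adherens junctions and desmosomes (94.1%) and 12 of 13 angiomotin and Hippo genes (92.3%). The others were 6 of 11 keratin and surface genes (54.5%), 10 of 10 epithelial regulators and 7 of 11 repressors and mesenchymal genes (63.6%). The share of all genes was 50.6%, and that of keratin and surface genes was near it.

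The strongest kept Klf4 regions among these genes were at Grhl2, Fn1, Crb3, Jup and Tead1. Grhl2, a transcription factor of epithelia that activates Cdh1, had folds of 15.8, 13.0 and 21.0 in the asynchronous and 5.29, 5.65 and 8.38 in the mitotic libraries. Crb3, the crumbs protein of the apical membrane, had 13.1, 5.07 and 18.1 in asynchronous libraries and 4.57 and 9.38 in mitotic libraries 2 and 3. Jup (plakoglobin, of adherens junctions and desmosomes), Fn1 (fibronectin) and Tead1 (a partner of Yap) had a peak in all 6 libraries. The kept regions of these 5 genes had strengths from 93.7 to 99.5, beside 94.2 for the lost region inside Cldn4.

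The genes whose strongest asynchronous Klf4 region was lost were led by Llgl2, Cldn3, Dsp, Tjp1 and Pkp2, with strengths from 86.6 to 92.4. Cldn3, the claudin gene next to Cldn4, had folds of 9.22 and 5.43 in asynchronous libraries 1 and 2, 13.6 kb from the gene. Tjp1 (the tight junction scaffold ZO-1) had 10.6 and 4.34 in the same libraries. Llgl2 (a basolateral polarity protein) had 9.21 and 5.68, and the desmosome genes Dsp and Pkp2 also had peaks in 2 of 3 asynchronous libraries. Each of these 5 regions missed 1 asynchronous library, whereas the strongest lost regions of Cldn4, Pard6b and Amotl2 were in all 3.

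Mitotic-only H3K27ac regions were strongest at Stk3, Nectin1, Tgfbr2, Spint2 and Tgfb1. Stk3, a kinase of the Hippo pathway, had folds of 14.2 and 16.6 in the mitotic libraries, and the other 4 had folds from 7.56 to 9.88. All were below the 29.4 and 32.1 of the region past Zeb1.

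By strongest fold within 20 kb in each of the 16 lists, the gene most like Cldn4 was its neighbour Mettl27, which had the same strongest fold in the 13 lists with a peak near Cldn4 and, like it, no peak in the others (mean absolute difference of 0 on the log2 scale). Mettl27 lies 2.49 kb from Cldn4, so their windows overlap and the same strongest peaks were counted for both. Next were Adap1 at 0.241 and Zfp536 at 0.249. For Zeb1 the genes most like it were Selplg at 0.0399, Cbs at 0.0988 and Zfp51 at 0.106, each with a peak in 5 of 16 lists as Zeb1 had. Lists with no peak near either gene count as no difference, so shared absence lowers these values.

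Peaks just inside and just outside the 20 kb limit had folds of 8.23 or less. The member peak nearest to the limit on the inside was an H3K27ac peak of asynchronous library 2 at Krt8, 19.7 kb away with a fold of 4.64. Just outside stood an H3K27ac peak of asynchronous library 1 at Krt18 (20.3 kb, 3.84), a Klf4 peak of asynchronous library 1 at Krt8 (20.5 kb, 4.62) and an H3K27ac peak of asynchronous library 2 at Epcam (20.7 kb, 8.23).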

How the data were processed

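ChIP-seq peak lists of 16 stem cell libraries were used. A list from a mix of stem cells and neural progenitors and 7 inputs were not used here. Per the submitters' processing notes, reads were processed with cutadapt 1.8.1, Bowtie2 2.2.5 (mm10), deepTools 2.3.6 and MACS2 2.1.1. Each deposited narrowPeak list holds the peaks of 1 library. The authors deposited the enrichment of each peak as a fold (a ratio to local background), and its p-value and q-value as −log10. No peak is listed with a −log10 p under 5. Read depth is unknown, so list length was the only measure of yield, and a shorter list can lose peaks without any change in binding.

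The analysis used pandas 2.3.3 and numpy 2.4.6 in Python 3.11.15, and figures matplotlib 3.10.9. Merging and calling were tested on simulated data. Gene spans came from RefSeq GRCm38.p6 (mm10). All 135 symbols of the lists were found, 1 by a synonym. Promoters of 7 members were found.

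The members, and the lists of pathway and marker genes, were chosen with earlier results of these data known, so no test was made. All members are named. Of the pathway genes, up to 5 were named per class by strength, and the 3 genes most like Cldn4 and Zeb1. Alternatives were windows of 5 and 50 kb, any overlap with the window, a −log10 q of at least 5, lists of equal length, merging at 50 bp, any mitotic library sufficing, 1 project only, leaving out each library, and, added after seeing the data, the nearest gene.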

Additional observations from a re-analysis of the deposited data

How the results depend on the processing

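Of 222 values for all members together under the alternatives, 157 stayed within 1.5 times the reported count or 1 SD of the reported share, and 65 moved beyond it. For single members 458 of 668 stayed. With a 5 kb window the kept Klf4 regions numbered 2, and the H3K27ac regions 23 asynchronous, 15 kept, 6 lost and 1 mitotic-only. With 50 kb, Klf4 had 36 asynchronous, 10 kept and 16 lost regions, H3K27ac 59, 35 and 5 mitotic-only, Oct4 4 asynchronous and 2 lost, and Sox2 2 asynchronous, 1 kept and 1 lost. With a −log10 q of at least 5, Klf4 had 14 asynchronous and 0 kept regions (9.83% of all regions were kept), H3K27ac 14 kept and 6 lost, and Oct4 1 asynchronous and 0 lost. With lists of equal length Klf4 had 8 asynchronous regions, 1 kept, 4 lost and 1 mitotic-only (47.7% of all regions were kept and 25.7% lost), H3K27ac 3 lost and 5 mitotic-only, and Oct4 1 asynchronous. Where any mitotic library sufficed, Klf4 had 13 kept and 3 mitotic-only regions, H3K27ac 7 mitotic-only, Oct4 1 kept and Sox2 2 mitotic-only. Within the project with both Klf4 states 17 were lost and 5 mitotic-only. With the nearest gene, 1 Klf4 region was kept.

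Without each library in turn, Klf4 had 12 to 23 asynchronous, 2 to 5 kept, 5 to 14 lost and 0 to 1 mitotic-only regions. The lowest asynchronous count was without asynchronous library 2, the lowest lost count (5) without asynchronous library 2 or 3, and the lowest kept count (2) without mitotic library 1 or 3, with 3 kept without mitotic library 2. H3K27ac had 13 to 20 lost (20 without either asynchronous library) and 3 to 7 mitotic-only regions (7 without mitotic library 2, 5 without asynchronous library 2). Oct4 had 0 to 1 kept regions (1 without mitotic library 1) and 1 to 2 lost (2 without mitotic library 2), and Sox2 0 to 2 mitotic-only (2 without mitotic library 2). The cause of these differences was not tested.

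The share of Klf4 lists near the members was 0.104% asynchronous and 0.0742% mitotic at 5 kb, 0.244% and 0.225% at 50 kb, and 0.186% and 0.245% with a −log10 q of at least 5. The asynchronous share was 0.193% with lists of equal length, and the mitotic share 0.130% within 1 project. For H3K27ac the shares were 0.0829% and 0.0920% at 5 kb and 0.211% and 0.210% at 50 kb, and the mitotic share was 0.153% with a −log10 q of at least 5. No paired analysis was possible because no result comes from a test and the replicate numbers pair no cultures. Depth is unknown, so a peak missing from a shorter list was not detectable in it and is not shown to be absent.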
